A study of Homo sapiens with 9 samples.

Results

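In MDA-MB-231 cells, a human triple-negative breast cancer (TNBC) line, 363 regions of chromatin were open in both libraries of EZH2-depleted cells and in none of the 4 libraries of control and E2F1-depleted cells. They are called shEZH2-only regions here, and they were 363 of the 112347 regions obtained by merging the peaks of 6 ATAC-seq lists at an overlap of 1 bp (0.323%). ATAC-seq marks accessible DNA by the insertion of adapters with the transposase Tn5, and a peak is a stretch where insertions exceed the local background. The 6 lists came from 2 libraries each of cells transduced with Control shRNA (shCtrl), shEZH2 or shE2F1 lentivirus for 24 h and selected with 2 μg/ml puromycin for 72 h. The selection did not use 3 further libraries, 1 each of shSUZ12 knockdown cells (same transduction and selection) and of cells given the EZH2 inhibitor GSK126 or its vehicle DMSO, and these have no replicate check. Drug treatment in the study lasted 72 h, and the dose for the GSK126 library is not given in the sources used here. All 9 libraries came from the same line, 1 shRNA was used per target, and nothing in the labels says whether replicates were separate cultures. The deposited lists held 58626 to 85812 peaks, and the depth recovered from them, relative to the first shCtrl library, was lowest for shEZH2 replicate 2 (0.788) and highest for shE2F1 replicate 2 (1.22). The promoters of all 6 genes picked as open in this line (VIM, CD44, CAV1, EGFR, AXL and ITGB1) carried a peak in all 9 lists. Those of 6 genes of other lineages carried one in none. Of 7 genes that mark luminal cells, 6 had a promoter peak in at least 7 lists (KRT8 and EPCAM in 9, ESR1 and CDH1 in 8, PGR and FOXA1 in 7). The GATA3 promoter had none.

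EZH2 is the enzyme within PRC2, a repressive Polycomb complex that methylates histone H3 at lysine K27. SUZ12 is a core subunit that PRC2 needs for stability and activity, JARID2 is an accessory subunit that helps bring the complex to chromatin, and GSK126 competes with the methyl donor of EZH2. The H3K27me3 mark is associated with compact, silent chromatin, above all at developmental genes. E2F1 is a transcription factor of cell cycle genes, and the study asked how EZH2 and E2F1 act together on chromatin in TNBC. Distal open chromatin in mesenchymal cells is often bound by AP-1 (FOS and JUN dimers), TEAD and RUNX factors, while ZEB and SNAI repressors bind a particular E-box.

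Sequences are shown for 9 shEZH2-only regions, to let the strongest ones and those near PRC2 and E2F genes be read directly. They are 5 of the 10 strongest regions, all with a motif near the summit, the stronger of the pair of regions upstream of E2F7, and the 3 regions nearest to JARID2. Among the 10 strongest, the regions nearest to NIPBL, SOX3 and LRATD2 held none of the 13 motifs searched within 100 bp of the summit. The 5 shown thus do not stand for all 10. Each line gives 151 bases of the plus strand of GRCh38 (hg38) centred on the summit, with capitals marking matches to AP-1 (TGANTCA), TEAD (CATTCC), RUNX (TGTGGT) or the ZEB and SNAI E-box (CAGGTG) on either strand.
DIO2 (chr14:80150442-80150592): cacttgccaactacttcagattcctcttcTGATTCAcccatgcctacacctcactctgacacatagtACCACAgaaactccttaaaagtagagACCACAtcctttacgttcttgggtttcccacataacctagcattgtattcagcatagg
ADAMTS9 (chr3:65146274-65146424): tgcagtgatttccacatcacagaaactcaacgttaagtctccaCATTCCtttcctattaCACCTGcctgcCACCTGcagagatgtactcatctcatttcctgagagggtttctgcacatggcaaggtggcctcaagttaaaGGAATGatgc
CLYBL (chr13:99679510-99679660): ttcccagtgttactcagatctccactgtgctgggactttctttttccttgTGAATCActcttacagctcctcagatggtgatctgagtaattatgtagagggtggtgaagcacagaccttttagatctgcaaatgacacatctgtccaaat
MAT2B (chr5:163585329-163585479): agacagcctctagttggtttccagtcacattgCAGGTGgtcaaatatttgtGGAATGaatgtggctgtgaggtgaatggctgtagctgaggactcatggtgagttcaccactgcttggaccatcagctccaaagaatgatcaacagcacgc
SEC11C (chr18:59123773-59123923): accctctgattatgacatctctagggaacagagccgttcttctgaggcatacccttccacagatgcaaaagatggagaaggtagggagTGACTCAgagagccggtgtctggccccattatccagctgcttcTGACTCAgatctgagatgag
E2F7 (chr12:77114092-77114242): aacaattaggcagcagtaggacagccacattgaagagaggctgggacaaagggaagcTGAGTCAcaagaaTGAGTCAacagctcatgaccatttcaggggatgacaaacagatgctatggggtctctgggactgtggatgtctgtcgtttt
JARID2 upstream (chr6:15228587-15228737): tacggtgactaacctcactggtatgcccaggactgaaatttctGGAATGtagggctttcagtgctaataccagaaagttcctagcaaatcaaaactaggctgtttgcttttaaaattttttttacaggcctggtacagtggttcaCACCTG
JARID2 intron, proximal (chr6:15274761-15274911): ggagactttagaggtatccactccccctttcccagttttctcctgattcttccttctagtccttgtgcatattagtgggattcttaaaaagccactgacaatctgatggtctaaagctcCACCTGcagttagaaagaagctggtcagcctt
JARID2 intron, distal (chr6:15284922-15285072): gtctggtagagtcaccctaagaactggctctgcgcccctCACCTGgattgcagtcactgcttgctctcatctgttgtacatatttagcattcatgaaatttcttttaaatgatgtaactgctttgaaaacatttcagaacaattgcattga
The DIO2 window held 1 AP-1 and 2 RUNX matches, and the windows of SEC11C and E2F7 held 2 AP-1 matches each. All 3 JARID2 windows held the ZEB and SNAI E-box. A match is a string of letters and not a measured binding site.

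Because the regions were selected on the presence of peaks, the strength of those peaks is described without a test. In shEZH2 replicate 1 the fold enrichment at the summit over the local background ranged from 2.44 to 11.6 over the 363 members, with a median of 5.19, against 6.79 over all peaks of that list. In replicate 2 it ranged from 2.62 to 14.5 with a median of 5.40, against 7.00. These are weak peaks. The median summit rested on 20 tags in replicate 1 and on 15 tags in replicate 2, and the median −log10 q was 9.0 and 7.41. Ranked by fold enrichment within its own list, the median member stood at percentile 28.0 in replicate 1 and 25.5 in replicate 2, where 50 is the middle of a list. Only 28 members (7.71%) were above percentile 50 in both replicates, none was above 75 in both, and 114 were below percentile 25 in both. The ranks of the replicates went together over the 363 regions (Pearson r = 0.602, Spearman rho = 0.618), which share their libraries and are not independent replicates. The summits of the paired peaks lay a median of 31.0 bp apart, and 233 pairs (64.2%) lay within 50 bp.

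**Figure D1:**
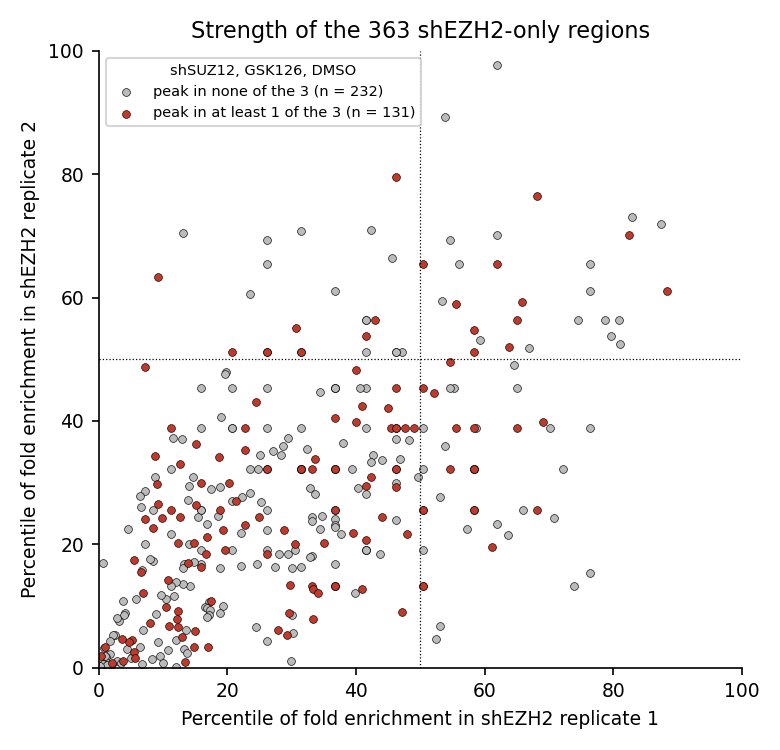
Percentile of fold enrichment of each of the 363 shEZH2-only regions in the list of shEZH2 replicate 1 (x axis) and replicate 2 (y axis), with dotted lines at percentile 50. Most points lie at the lower left, 28 lie above 50 on both axes, and the regions that also had a peak in shSUZ12, GSK126 or DMSO (red) are spread among the others (grey).

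Some regions lay close to the limits of the selection. Of the members with the lowest −log10 q in a shEZH2 list, 4 lay nearest to SEMA4F, CCDC90B, MEIOSIN and ID4, with values of 2.53 to 2.88 in replicate 2 and 3.53 to 6.39 in replicate 1. A further 658 regions had both shEZH2 peaks and a peak in just 1 of the other 4 lists, 155 in shCtrl replicate 1, 206 in shCtrl replicate 2, 56 in shE2F1 replicate 1 and 241 in shE2F1 replicate 2. The median −log10 q of that additional peak was 8.43, and it was under 3 in 4 regions, those near CPLANE1, PWP2, CHN1 and FRG1, where it was 2.81 in each case. The region near CHN1 had −log10 q of 16.2 and 17.4 in the shEZH2 lists.

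The number of members depended on each library. Leaving out shCtrl replicate 2 gave 579 regions and leaving out shE2F1 replicate 2, the deepest library, gave 612. With 1 shEZH2 library in place of both, 4444 regions were found on replicate 1 alone and 1550 on replicate 2 alone. The same pattern asked of the other groups gave 2262 regions open only in both shE2F1 libraries and 2118 only in both shCtrl libraries, while 42809 regions were open in all 6. Limiting each list to its 58626 strongest peaks, the size of the shortest list, gave 946 shEZH2-only regions. The shE2F1-only and shCtrl-only counts were not recomputed at this setting, so 946 is not to be set beside them.

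A measure independent of the choice is whether regions chosen on 1 replicate recur in the one left out. Of the 4444 regions with a peak in shEZH2 replicate 1 and none in the shCtrl and shE2F1 lists, 8.48% (95% Wilson interval 7.70 to 9.34) had a peak in shEZH2 replicate 2. The same regions had a peak in shSUZ12 in 11.0% of cases (10.1 to 11.9), in GSK126 in 7.09% (6.37 to 7.88) and in DMSO in 9.83% (8.99 to 10.7). Recurrence in the second shEZH2 library was thus no higher than presence in the vehicle library. Chosen on replicate 2, 24.8% of 1550 regions (22.8 to 27.1) had a peak in shEZH2 replicate 1, against 13.1% in shSUZ12, 8.58% in GSK126 and 10.3% in DMSO. In this direction the other shEZH2 library held the regions most often. For shE2F1 the shares that recurred in the replicate left out were 43.6% and 20.7%, and for shCtrl 31.7% and 26.4%. The lists differ in length, 58626 peaks in shEZH2 replicate 2 against 72202 in replicate 1, and the part of depth in these shares was not tested. All such intervals cover counting error only, because regions of 1 library are not replicates.

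**Figure D2:**
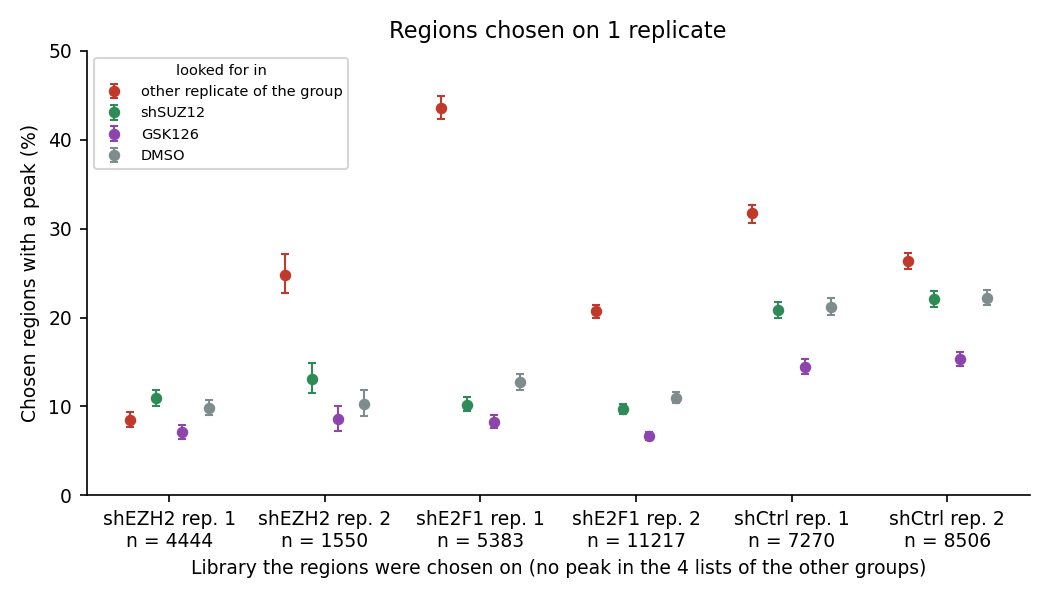
Share of regions chosen on 1 library (x axis, with their number) that had a peak in the other replicate of the group or in shSUZ12, GSK126 or DMSO (y axis, percent, bars are 95% Wilson intervals). For regions chosen on shEZH2 replicate 1 the other replicate (8.48%) lies above GSK126 (7.09%) and below DMSO (9.83%) and shSUZ12 (11.0%). For those chosen on replicate 2 it lies above all 3 at 24.8%.

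Few shEZH2-only regions were open in the 3 libraries outside the selection. In shSUZ12, 66 of 363 members had a peak, 18.2% (14.6 to 22.5), against 59.1% of all merged regions. In GSK126 it was 50 members, 13.8% (10.6 to 17.7), against 56.9%. In DMSO it was 63 members, 17.4% (13.8 to 21.6), against 61.8%. The intervals of the shares in DMSO and in both PRC2-directed treatments overlapped, and 1 library per treatment allows no test over samples. With lists limited to the same number of peaks, which gave 946 regions, the shares were 25.7% in shSUZ12 (23 to 28.6), 20.6% in GSK126 (18.2 to 23.3) and 19.2% in DMSO (16.9 to 21.9). The shSUZ12 interval then lay above that of DMSO. With −log10 q of at least 5 asked of every list, the shares were 17.8%, 17.5% and 17.5%. Intervals of 1 setting describe the same regions, so their order is not a test. Shares over all merged regions were not computed at these settings. The shares of the 363 members were below those of the 12751 regions open in exactly 2 of the 6 lists, which were 27.2% in shSUZ12, 21.2% in GSK126 and 29.9% in DMSO. Among the shE2F1-only regions they were 13.9%, 12.0% and 18.5%, and among the shCtrl-only regions 38.4%, 28.8% and 40.7%.

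**Figure D3:**
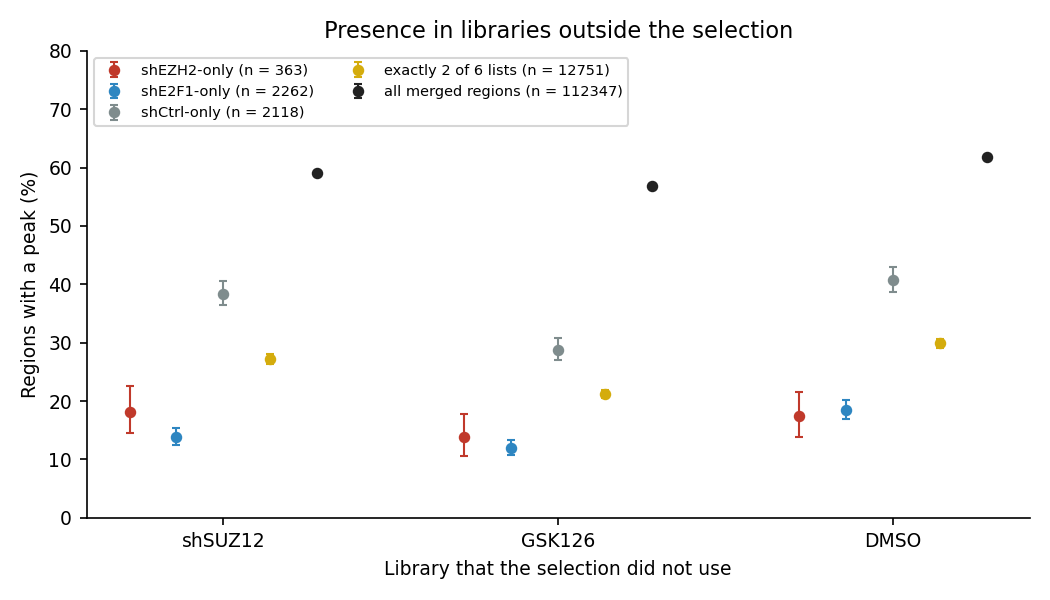
Share of regions with a peak (y axis, percent, bars are 95% Wilson intervals) in the 3 libraries outside the selection (x axis), for shEZH2-only regions and 4 other sets. The shEZH2-only regions (red) lie between 13.8% and 18.2%, near the shE2F1-only regions and below the shCtrl-only regions and all merged regions.

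These shares moved with the libraries used for the selection. Chosen on shEZH2 replicate 1 alone or replicate 2 alone they fell to 11.0% or 13.1% in shSUZ12, 7.09% or 8.58% in GSK126 and 9.83% or 10.3% in DMSO. Without shCtrl replicate 2 they were 28.3%, 23.5% and 28.3%, and without shE2F1 replicate 2 they were 24.5%, 21.1% and 24.2%.

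By combination, 232 members (63.9%, 58.8 to 68.7) had no peak in any of the 3 libraries. This share was 28.4% of all merged regions, 49.2% of regions open in exactly 2 lists and 67.7% of shE2F1-only regions. A peak was found in shSUZ12 only at 38 members (10.5%), in DMSO only at 31 (8.54%) and in GSK126 only at 21 (5.79%). Among regions open in exactly 2 lists these shares were 11.0%, 12.1% and 6.34%. Peaks in shSUZ12 and GSK126 without DMSO were found at 9 members (2.48%), in GSK126 and DMSO without shSUZ12 at 13, in shSUZ12 and DMSO without GSK126 at 12, and in all 3 at 7. Among all regions open in exactly 2 of the 6 lists, 3.56% had the pattern shSUZ12 and GSK126 without DMSO. In the same set 5.18% had GSK126 and DMSO without shSUZ12, 6.45% had shSUZ12 and DMSO without GSK126, and 6.14% had all 3. Members with and without a peak in the 3 libraries were about equally strong, with a median percentile in shEZH2 replicate 1 of 29.8 against 26.1 and in replicate 2 of 25.5 against 25. Of the 121 strongest members, 38% had a peak in at least 1 of the 3 libraries, of the middle 121 members 32.2% and of the 121 weakest 38%. Where members had a peak in a further library it was also weak, with a median percentile of 24.2 in shSUZ12, 20.2 in GSK126 and 21.4 in DMSO.

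The 5 strongest members with peaks in shSUZ12 and GSK126 and none in DMSO lay near DPPA5, near PLEKHG7 and in introns of PSD3, ST7 and PEX14. PEX14 is a docking protein of peroxisomal import. At chr7:117009254-117009476, in intron 1 of ST7, fold enrichment was 5.00 and 6.51 in the shEZH2 replicates, 6.58 in shSUZ12 and 7.81 in GSK126. At chr1:10530842-10531218, in intron 2 of PEX14, it was 5.34 and 4.58 in shEZH2, 4.92 in shSUZ12 and 4.91 in GSK126. The nearest shCtrl peak lay 175 bp from the PEX14 region, 161 bp from the PSD3 region and 275 bp from the DPPA5 region. Control cells thus had open chromatin close by at these 3 places.

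The strongest member lay 61.0 kb downstream of the transcription start site (TSS) of DIO2, which encodes a deiodinase that activates thyroid hormone. At chr14:80150371-80150682 fold enrichment was 10.5 from 30 tags in shEZH2 replicate 1 and 9.15 from 21 tags in replicate 2, at percentiles 82.9 and 73.1. It had no peak in any other library, and the nearest shCtrl peak was 61.4 kb away. The second in rank lay in intron 2 of ADCY8, a calcium-stimulated adenylyl cyclase, with 11.4 in replicate 1 and 9.02 in replicate 2. It too had no peak elsewhere. The third in rank lay 458 kb upstream of ADAMTS9, which encodes a secreted metalloprotease of the matrix, with 10.4 and 8.80. Unlike the first pair it also had peaks in shSUZ12 (5.85), GSK126 (6.17) and DMSO (7.89).

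Others of the 10 strongest differed in where else they were open. In intron 1 of CLYBL, a mitochondrial lyase, fold enrichment was 8.48 and 9.56 in shEZH2, 8.12 in GSK126 and 6.82 in DMSO. The region upstream of SOX3, a developmental transcription factor, had 7.81 and 8.31 in shEZH2, 6.11 in shSUZ12 and 5.38 in DMSO. The region near LRATD2 had 11.6 and 7.90 in shEZH2, 4.87 in GSK126 and 6.10 in DMSO. All 3 had a peak in vehicle-treated cells. Peaks in shEZH2 alone were found in intron 9 of NIPBL, the loader of cohesin (9.50 and 8.31), near MAT2B, a regulatory subunit of methionine adenosyltransferase (7.81 and 8.80), and upstream of SEC11C, a subunit of the signal peptidase (9.50 and 7.90). KLF5, a zinc finger factor of epithelial cells, had a region 245 kb downstream of its TSS at percentile 61.9 in replicate 1 and 97.7 in replicate 2. That was the highest rank of any member in replicate 2. In all, 6 of the 10 strongest had no peak in shSUZ12, GSK126 or DMSO, and 4 had one in DMSO.

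Promoters were rare among the members. Of 363 regions, 8 (2.20%, 1.12 to 4.29) were promoters of protein-coding genes, within 1 kb of a TSS. The share was 13.1% of all merged regions, 4.66% of regions open in exactly 2 lists and 26.1% of regions open in all 6. Among the shE2F1-only regions it was 2.17%, so the low share was not particular to the members. A further 148 (40.8%) had their summit in an intron, 10 (2.75%) in an exon and 197 (54.3%, 49.1 to 59.3) in intergenic DNA. In all merged regions the shares were 36.9%, 3.18% and 46.7%, and in shE2F1-only regions 37.0%, 2.25% and 58.6%. Of the intergenic members, 62 lay inside a gene of another biotype, such as a long noncoding RNA. The exonic members comprised 6 in coding sequence and 4 in untranslated exons, among them coding exon 14 of FN1, which encodes fibronectin, and coding exon 1 of ARID1A, which encodes a subunit of the BAF remodelling complex. The median distance from summit to TSS was 55.0 kb, against 32.6 kb in all merged regions and 21.0 kb in those open in all 6. In shE2F1-only regions it was 47777 bp. Of the members, 119 (32.8%) lay over 100 kb from any TSS, against 23.5% of all merged and 31.9% of shE2F1-only regions. The promoter share was 5.33% when shEZH2 replicate 2 was left out and 15.4% when peaks were replaced by windows of 150 bp on each side of the summit.

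**Figure D4:**
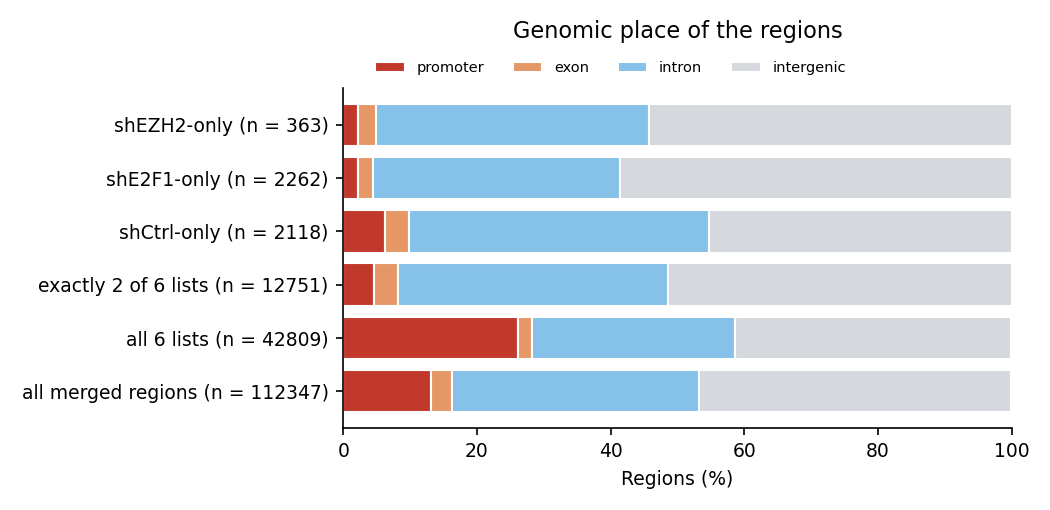
Genomic place of shEZH2-only regions and of 5 other sets, as the share of regions (x axis, percent) at promoters, in exons, in introns and in intergenic DNA by protein-coding genes. Promoters make up 2.20% of shEZH2-only regions, 2.17% of shE2F1-only regions, 26.1% of regions open in all 6 lists and 13.1% of all merged regions.

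The 8 promoter members belonged to genes of diverse tissues and were weak. GABRB1 and GRIA4, subunits of receptors for the transmitters GABA and glutamate, had regions 87 bp upstream and 293 bp downstream of their TSS. Fold enrichment was 4.35 in replicate 1 and 5.77 in replicate 2 at GABRB1, and 3.87 and 5.77 at GRIA4, from 11 to 14 tags. The nearest shCtrl peak lay 109 kb from the GRIA4 region and 739 bp from that of GABRB1. LCE3A, a late cornified envelope gene of skin, had 4.02 and 4.41. MUC1, a mucin of epithelial surfaces, had 2.72 and 3.57, and PITX3, a homeobox factor of lens and dopaminergic neurons, had 3.30 and 2.96. FADS6, COG2 and CDC42EP1 completed the list. Only the region in intron 1 of CDC42EP1, an effector of the GTPase CDC42, had a peak in a further library, at 3.81 in shSUZ12 and 3.34 in GSK126. A shCtrl peak lay 163 bp from the CDC42EP1 region, 456 bp from that of COG2 and 818 bp from that of MUC1. The gap was 3.19 kb at PITX3, 14.2 kb at FADS6 and 31.0 kb at LCE3A.

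Many members stood beside chromatin that was open in control cells. The median gap from a member to the nearest shCtrl peak was 5.00 kb, the smallest 105 bp and the largest 237 kb. A shCtrl peak lay within 1 kb of 71 members (19.6%) and within 10 kb of 244 (67.2%). Of the shE2F1-only regions, 17.3% had a shCtrl peak within 1 kb, with a median gap of 6.23 kb. When no shCtrl or shE2F1 peak was allowed within 1 kb, 280 members remained. At the other end, 81 members (22.3%) had no region open in all 6 libraries within 50 kb (18.3 to 26.9), and the share among regions open in exactly 2 lists, 19.0%, lay inside this interval.

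The GC content of the members depended on the libraries used to choose them. Within 100 bp of the summit the median GC content was 45.8% (range 31.8 to 77.6), against 51.2% in all merged regions, 54.7% in regions open in all 6 lists, 48.8% in those open in exactly 2, 45.8% in shE2F1-only and 50.7% in shCtrl-only regions. Without shEZH2 replicate 1 the median was 49.3%, and without replicate 2 it was 51.2%, the value of all merged regions. No CpG was present in that window in 79 members (21.8%), against 12.0% of all merged regions. This share was 23.5% in shE2F1-only regions and 15.9% in those open in exactly 2 lists, so it was not particular to the members. Over 5 kb on each side the median GC content was 42%, against 44.4% in all merged regions, 42.9% in shE2F1-only regions and 43.3% in those open in exactly 2 lists. The 32 bases at the summit had more than 1 exact copy in the genome at 11 members (3.03%), against 3.81% of all merged regions.

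Motifs of the AP-1, TEAD, RUNX and ZEB or SNAI families were the most frequent of 13 motif groups searched within 100 bp of the summit on both strands. AP-1 was found in 139 members, 38.3% (33.4 to 43.4), against 32% of all merged regions. RUNX was found in 25.3% (21.1 to 30.1) against 18.3%, TEAD in 24.2% (20.1 to 28.9) against 17.1%, and the ZEB and SNAI E-box in 23.1% (19.1 to 27.7) against 16.6%. None of these 4 was found in 90 members. In regions open in exactly 2 lists, AP-1 was found in 31.2%, RUNX in 19.1%, TEAD in 17.4% and the ZEB and SNAI E-box in 17.3%. AP-1 was found in 35.2% of regions open in all 6 lists and RUNX in 21.3% of shCtrl-only regions. Both of these shares lay inside the intervals of the members. Motifs of GC-rich promoters were scarce: SP and KLF (GGGCGGG) in 1.65% against 10.5%, and ETS (CCGGAAG) in 0.551% against 2.98%. An E2F motif (TTCCCGC or TTGGCGC) was found in 1 member, near MICAL1 (0.275%, 0.0486 to 1.54), against 2.64% of all merged regions. The CTCF motif was found in 5 members, 1.38% against 3.84%. These motifs were also scarce in shE2F1-only regions: SP and KLF 2.79%, ETS 0.531%, E2F 0.840% and CTCF 0.752%. In regions open in exactly 2 lists the shares were 4.49%, 1.30%, 1.38% and 3.89%. For E2F both shares lay inside the interval of the members. The AP-1 share was 21.4% without shEZH2 replicate 2 and 25.5% without replicate 1.

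Set beside the shE2F1-only regions, which have the same median GC content, the members differed in which motifs they held. A motif of GATA factors, spelt AGATAA, was found in 6.61% of members (4.48 to 9.65) and in 22.9% of shE2F1-only regions (21.2 to 24.6). The NFI half-site (TTGGCA) was found in 10.2% and 16.4%, and FOX (TGTTTAC) in 1.65% and 4.82%. Over all merged regions the shares were 8.86% for GATA, 11.7% for NFI and 3.02% for FOX. Each lay inside the interval of the members and below the share of the shE2F1-only regions. In the other direction, RUNX was found in 25.3% of members and 17.0% of shE2F1-only regions, and the ZEB and SNAI E-box in 23.1% and 13.2%. AP-1 was found in 38.3% and 39.9%, and TEAD in 24.2% and 22.8%. Homeobox (TAATTA) and the E-box CACGTG were each found in 3.31% of members, against 2.30% and 4.02% of all merged regions. Some motifs share part of their letters, as NFI does with E2F, TEAD with ETS and the E-box with the ZEB and SNAI E-box, so that sites can overlap, and no test was made across regions because neighbouring regions and those of 1 library are not replicates.

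**Figure D5:**
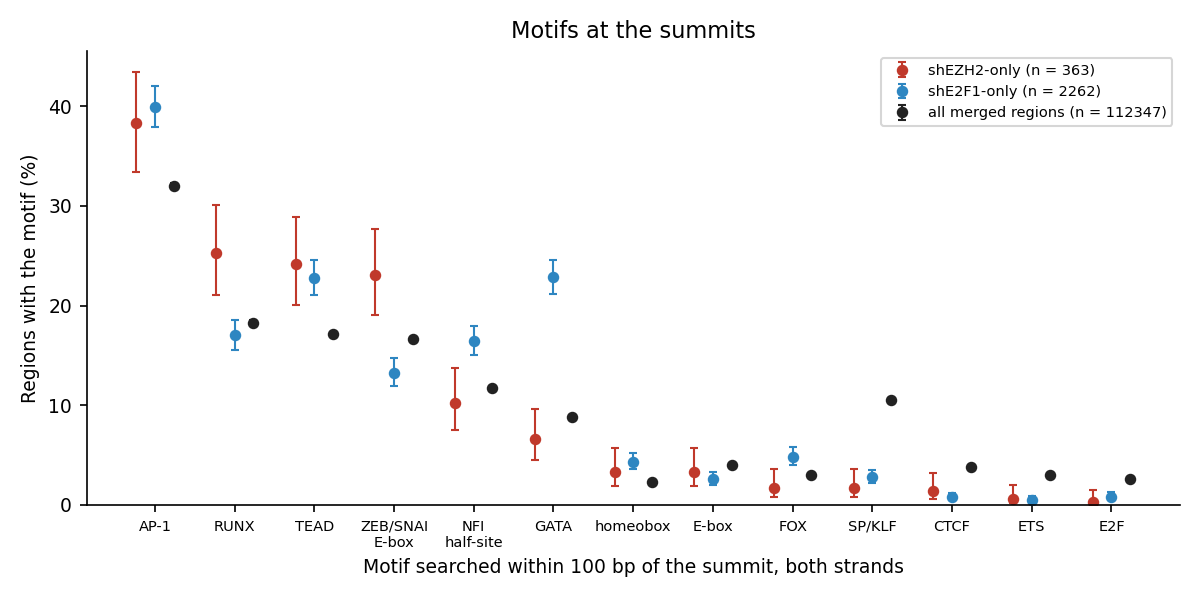
Share of regions (y axis, percent, bars are 95% Wilson intervals) with each of 13 motifs (x axis) within 100 bp of the summit, for shEZH2-only, shE2F1-only and all merged regions. The intervals of shEZH2-only and shE2F1-only regions lie apart for GATA, NFI, FOX, RUNX and the ZEB and SNAI E-box and overlap for AP-1 and TEAD.

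The 363 members had 350 different nearest protein-coding genes, so that few genes gathered several of them. JARID2 was the single gene nearest to 3 members, and 11 genes were nearest to 2. The JARID2 regions lay 17.4 kb upstream of its TSS and 28.8 and 38.9 kb downstream, both in intron 1 of 18 exons. Fold enrichment of the upstream region was 4.49 in replicate 1 and 4.37 in replicate 2. The proximal intronic region had 4.05 and 3.51, and the distal one 4.47 and 3.59, with a peak also in shSUZ12 (3.13). These values were at percentile 17.2 or lower in the shEZH2 lists, and the nearest shCtrl peaks lay 6.34, 1.6 and 0.953 kb away. No other gene of the PRC2 list (11 genes) was nearest to a member. Of all merged regions 0.110% were nearest to a gene of that list, against 0.826% of members (0.281 to 2.40). The 3 members lie at 1 locus and share 1 nearest gene. The interval counts them as separate, so these shares say nothing about PRC2 genes as a list.

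By the lists of gene families, 11 members (3.03%, 1.70 to 5.34) were nearest to a developmental transcription factor, a class of genes known as PRC2 targets, against 1.86% of all merged regions. The 5 strongest were near SOX3, GATA3, SOX4, SOX2 and MSX2. The GATA3 region lay 444 kb from its TSS, with fold enrichment of 7.47 and 6.24, and the SOX2 region 82.6 kb upstream, with 5.09 and 6.24. The MSX2 region lay 11.9 kb downstream, with 4.87 and 6.24, and was the only one of these 4 after SOX3 with a peak in a further library, GSK126 (6.09). Genes of cell adhesion and axon guidance were nearest to 10 members (2.75%, 1.5 to 5.0) against 1.26%. In intron 2 of ROBO1, a guidance receptor, fold enrichment was 7.19 and 7.69, with 8.72 in GSK126 and 6.10 in DMSO. In intron 1 of CDH13, a cadherin anchored to the membrane by lipid, it was 6.79 and 6.65, with 7.28 in shSUZ12. Further members lay near EFNA5, NLGN4X and LRRTM2, and a pair near CDH2, which encodes N-cadherin. The interval of the first list included the share of all merged regions. The 10 members of the second list had 8 distinct nearest genes, with a pair each for ROBO1 and CDH2, and the 32 summit bases of the other ROBO1 member had 8256 exact copies in the genome. The share of the second list among regions open in exactly 2 lists was 1.47%.

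Genes of the cell cycle list were nearest to 5 members (1.38%, 0.590 to 3.18) against 0.884% of all merged regions. The list was drawn by symbol family, so that a gene such as KIF1C entered it by name and not by its role. A region in intron 6 of CCNE1, which encodes cyclin E and lies downstream of E2F factors, had fold enrichment of 6.11 in replicate 1 and 6.24 in replicate 2. A pair lay 48.6 and 38.9 kb upstream of E2F7, an atypical E2F that represses transcription, with 5.56 in both replicates and with 4.52 and 5.62. The others were near PLK2 (4.29 and 4.85) and in an intron of KIF1C (3.92 and 3.70). The nearest shCtrl peaks lay 2.01 and 0.234 kb from the E2F7 regions, in the order given. They lay 7.17 kb from the CCNE1 region, 3.10 kb from that of PLK2 and 5.00 kb from that of KIF1C. Of these 5, PLK2 alone had peaks in further libraries, GSK126 (4.60) and DMSO (5.25). An AP-1 motif lay within 100 bp of the summit in 4 of the 5, the E2F7 pair among them, against 38.3% of all members. With only 5 regions, this count says nothing about AP-1 at cell cycle genes as a list.

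The remaining lists had shares close to those of all merged regions. Matrix, integrin and invasion genes were nearest to 6 members (1.65% against 1.27%), including ADAMTS9, MMP16, FN1, ADAM12 and ADAMTS16. Ion channels and transmitter receptors were nearest to 6 (1.65% against 1.51%), with GRM8, GABRB1, KCNMA1, TRPC6 and GRIA4. Ligands and receptors of development were nearest to 3 (0.826% against 0.927%), namely FGF23, INHBA and WNT2. At chr7:41110220-41110548, nearest to INHBA at 593 kb, the summit rested on 51 tags in replicate 1 and 20 in replicate 2. The region nearest to FGF23 lay in the last exon of TIGAR and had 6.45 and 9.98, with 5.99 in DMSO. Genes of the cytokine and chemokine list, also drawn by symbol family, were nearest to 2 (0.551% against 0.640%), CXCL6 and the receptor gene IL1R1. The nearest gene is a label by distance, and expression was not measured in these libraries.

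Members were spread over chromosomes 1 to 22 and X. Chromosome 2 held 38 (10.5%, against 8.13% of all merged regions), chromosome 5 held 34 (9.37% against 6.01%) and chromosome 6 held 31 (8.54% against 5.77%), while chromosome 17 held 6 (1.65% against 4.77%) and chromosome 19 held 8 (2.20% against 4.11%). Only 17 members lay within 100 kb of another, and 6 within 10 kb. The 121 strongest members lay a median of 78.6 kb from a TSS and had a median GC content of 45.3%, against 31.3 kb and 48.8% for the 121 weakest.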

How the data were processed

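ATAC-seq reads of 9 MDA-MB-231 libraries were aligned by the authors with Bowtie2 to GRCh38 (hg38), with up to 4 alignments per read, and shifted by 4 bp (plus strand) and 5 bp (minus strand) for the Tn5 cut. The authors called peaks for each library separately, and the caller is not given in the sources used here. Each deposited list holds a score, equal in 99.9% or more of its peaks to −log10 q times 10 without its decimals. It also holds a fold enrichment, a ratio of the summit to the local background with 1 added to each, by the authors, and −log10 p and −log10 q as deposited. No peak ran past the end of a GRCh38 chromosome, and the lowest −log10 q was 2.00.

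Groups were taken from the deposited labels. Peaks of the 6 shCtrl, shEZH2 and shE2F1 lists were merged at 1 bp, and a region was kept when both shEZH2 lists and none of the other 4 held a peak. Members, lists of genes, motifs and comparisons were chosen with earlier results of these data known. Tags at a summit were recovered as the whole number that yields both its fold enrichment and −log10 p, and relative depth as the most frequent background. Place and nearest TSS used canonical transcripts of 20033 protein-coding genes (GENCODE v44), with promoters 1 kb on either side. Exon and intron were read at the summit of the strongest peak. Sequence came from the same genome, which carries no repeat mask, so repeats were not examined. Shares have 95% Wilson intervals. No test between groups of libraries was made, since the lists hold no counts per region across libraries. Merging was tested on simulated lists with planted regions. Regions named were the 10 with the highest lower percentile of both replicates, the promoter members, the 5 highest by that measure in shSUZ12 and GSK126 without DMSO and in none of the 3, the genes nearest to 3 or more members, and up to 5 for each gene list. Regions named beyond these (ARID1A, MICAL1, CDH2 and those at the limits of the selection) were picked after their values were seen, and a few items are not reported here. Alternatives were other thresholds, list lengths, overlaps, windows, gene models and rankings, and leaving out each replicate. The software was matplotlib 3.10.9, numba 0.67.0, pysam 0.24.0, scipy 1.17.1, pandas 2.3.3 and numpy 2.4.6 under Python 3.11.15.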

Additional observations from a re-analysis of the deposited data

How the results depend on the processing

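Of 114 values recomputed under the alternatives, 74 stayed inside the Wilson interval (shares), the interval of the median (GC content) or 1.5 times the count reported. With the 58626 strongest peaks of each list, 946 regions were found, of which 25.7% had a shSUZ12 peak, 20.6% a GSK126 peak, 19.2% a DMSO peak and 4.33% lay at a promoter. With peaks replaced by their summits and 150 bp around them, 625 regions were found, with 19.7% in GSK126, 15.4% at a promoter, 30.1% with AP-1 and a median GC content of 49.8%. With −log10 q of at least 5 asked of both shEZH2 peaks the promoter share was 1.09%, and with promoters of 2 kb on each side it was 4.68%. The intergenic share was 37.2% with genes of every biotype, the AP-1 share 27% within 50 bp, and the median GC content 45.2% over whole regions. Ranking by −log10 p kept 5 of the 10 strongest regions named, while all 10 stayed members under the other rules of peak strength and overlap. The cause of these shifts was not tested.

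Leaving out each of the 6 replicates in turn gave 420 to 4444 regions. The shares were 11.0% to 28.3% for shSUZ12, 7.09% to 23.5% for GSK126, 9.83% to 28.3% for DMSO, 2.45% to 5.33% for promoters, 49.1% to 54.5% for intergenic DNA and 21.4% to 43.1% for AP-1, with a median GC content of 45.8% to 51.2% and all 10 of the strongest regions kept by construction, since leaving out a library only removes a condition. No paired analysis was possible because the results are counts and shares of regions that come from no test. With 8 to 90 tags at the summits of members, absence of a peak means that none was called at this depth, not that the DNA was closed.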

Other observations

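Near SEC16B, a pair of neighbouring members at chr1:177847958-177848198 and chr1:177848713-177849001 were at percentiles 42.6 and 52.1 of fold enrichment in shEZH2 replicate 1 and at 34.5 and 44.6 in replicate 2. The member at the other ROBO1 site, chr3:79367806-79368180, had 32 bases at its summit with 8256 exact copies in the genome, so that its reads could not be placed uniquely by those bases. These regions were picked after their values were seen.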
